A study of Ovis aries and Bos taurus with 10 samples.

Results

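The genes described here are those that let the ovary make steroids and respond to the gonadotropins: the cholesterol carrier STAR, the enzymes CYP11A1, CYP17A1, CYP19A1, HSD3B1 and HSD17B1, the receptors FSHR and LHCGR, and the theca cell hormone INSL3. Every probe set whose array annotation gives one of these 9 symbols was taken, with no regard to its signal. This gave 9 of the 9155 genes named on the array, by 14 of its 24016 probe sets, that is 4 for CYP19A1, 3 for LHCGR and 1 for each of the other 7 genes.

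Oocytes and follicle cells were cut by laser capture microdissection (LCM) from frozen ovary sections of newborn lambs (Ovis aries, under 1 day old), in 6 conditions with 1 array each. Oocytes of primordial, primary and secondary follicles are PDO, PMO and SECO, and the granulosa cells (GC) around them are PDG, PMG and SECG. The RNA of each capture came from several pooled animals and was amplified repeatedly before labelling with the Arcturus turbo kit. Another 4 arrays hold whole fetal ovaries without capture: sheep at 132 days post coitum under 3 labelling protocols (P1, P2 and P3), and cattle at 8 months post coitum under P1. P1 is the Affymetrix one-cycle labelling, P2 adds repeated amplification with Affymetrix labelling, and P3 is the protocol of the captured cells. All arrays are the Affymetrix Bovine array, so the sheep RNA met probes designed for cattle. The labels name no treatment or genotype. Every array is a single sample of its kind, so the number of arrays limits the precision of every value.

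Steroid synthesis starts when STAR moves cholesterol into the mitochondrion, where CYP11A1 cuts off its side chain to give pregnenolone. HSD3B1 turns pregnenolone into progesterone, CYP17A1 leads on to androgens, CYP19A1 (aromatase) makes oestrogens, and HSD17B1 reduces oestrone to the more active oestradiol. In a growing follicle the early steps and INSL3 are known from theca cells, which carry the LH receptor LHCGR, while aromatase and HSD17B1 are known from GC, which carry the FSH receptor FSHR.

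The deposited values are MAS 5.0 signals, a linear measure of how brightly a probe set lit up, with every array scaled to the same trimmed mean of 100. Detection was read per array from the rank of a signal: the brightest probe sets counted as detected, as many as the study's percentage of present calls for that array. The signal at which this begins, the detection limit, lay between 45.8 (PDG) and 74.2 (PMO) on the LCM arrays and between 28.9 and 44.7 on those of fetal ovaries. The signal of 1 probe set says nothing of another's, so levels were compared between arrays only. In such captures a lower signal can stand for fewer cells of a type or for less RNA per cell, and these cannot be told apart.

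Markers of both cell types were found in both kinds of capture. All 8 oocyte markers on the array that were tested had a higher mean in oocytes (median difference 0.41 on the log2 scale). For ZP4 the difference was only 0.005. Yet 7 of the 8 were also detected on each GC array, as were ZP3 and ZP2, proteins of the egg coat. The summed signal of the 8 was higher in oocytes at the primordial (7735 against 3053) and primary stage (7920 against 5627). At the secondary stage it was lower in oocytes, 2723 on SECO and 3448 on SECG. All 5 GC markers tested had a lower mean in oocytes (median difference -1.22). So had all 6 stroma markers (-0.95) and all 3 smooth muscle markers tested (-0.84). Markers were tested only if detected on at least 1 LCM array, so the filter favours some of these signs. CDH2, a GC marker, entered through GC arrays alone, LUM of the stroma through PDG and PMG alone, and BMP15 of the oocyte through PMO alone. AMH, FOXL2 and KITLG, also GC markers, were under the limit on all 6 arrays by their brightest probe set. By qPCR, over stages up to small antral follicles, the paper found AMH and KITLG higher in GC. For KITLG, as KL, the paper also reports this from its microarray data, which the detection used here did not show. Of the 7 theca markers, which include 5 of the genes described here, 1 to 3 were detected on an LCM array, and NR2F2, a transcription factor of theca and stroma, was one of them on every array. COL1A2 and COL3A1, collagens of the stroma, were detected on all 6 arrays. SECO stood apart by some of its haemoglobin probe sets: the brightest of 4 for HBB read 3838 there and 398 on PMG, against 2.0 to 69.4 on the other 4 LCM arrays, and a second 2990 and 334, against 5.76 to 20.5. The remaining pair did not follow, one being highest on PDG (103, with 90.5 on SECO) and the other reading 1.15 to 7.43 throughout.

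Of the 9 genes 4 were detected on at least 1 LCM array, HSD17B1, HSD3B1, INSL3 and STAR, and each of them by its single probe set. The other 10 probe sets, of 5 genes, were under the limit on all 6. Of all probe sets on the array 48.5% were detected on at least 1 LCM array, against 4 of 14 here. By array, 0 of the 14 were detected on PDG (36.5% of all probe sets were), 1 on PDO (34.1%) and 1 on PMO (29.4%). It was 3 each on SECO (32.0% of all), PMG (30.1%) and SECG (35.4%). In fetal ovaries it was 4, 2 and 3 for sheep with protocols P1, P2 and P3 (49.9%, 38.7% and 37.8% of all) and 6 for cattle (57.2%). Of the 14 probe sets 8, all those of CYP19A1, FSHR and LHCGR, were detected on no array of the 10, as were 32.3% of all probe sets.

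**Figure D1:**
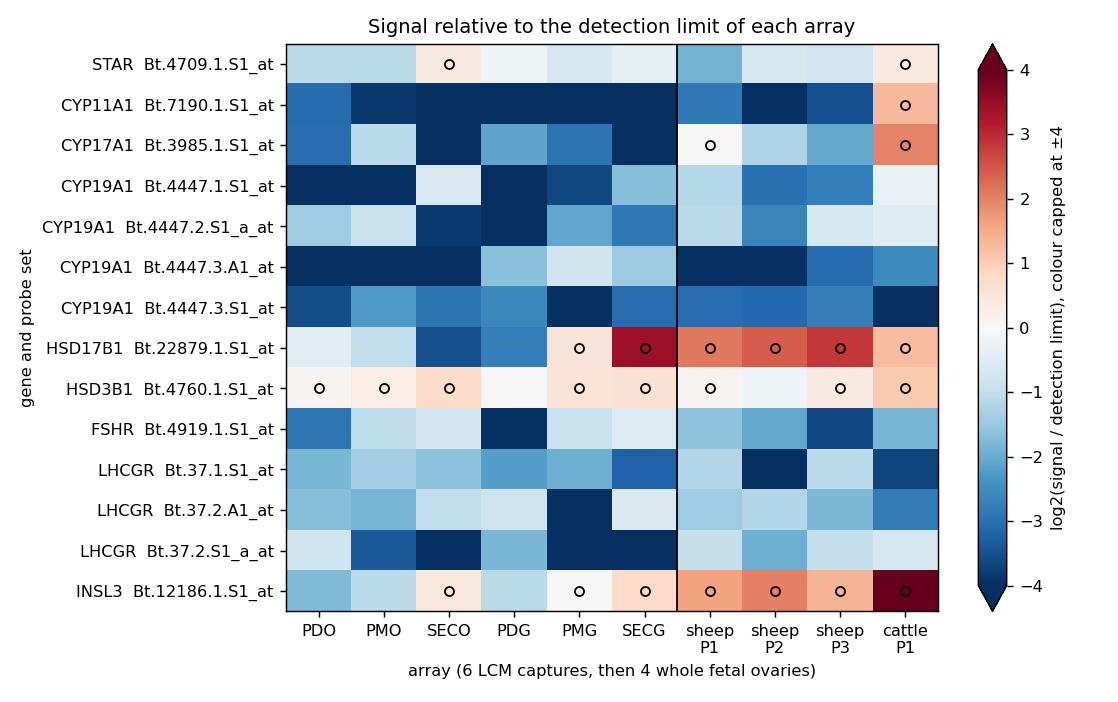
Signal of the 14 probe sets (rows) on the 10 arrays (columns), as log2 of the signal over the detection limit of the array, with circles where the probe set was detected. The circles on the LCM arrays lie in the 4 rows of STAR, HSD17B1, HSD3B1 and INSL3, and the 8 rows of CYP19A1, FSHR and LHCGR hold none.

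The gonadotropin receptors were not detected in any follicle stage or fetal ovary. FSHR, the receptor through which FSH drives GC to grow and to make oestrogen, read 7.01, 36.5 and 39.4 in oocytes from the primordial to the secondary stage, and 2.93, 39.3 and 35.1 in GC. The primordial arrays were the low ones in both compartments, but every one of these signals was at most 0.705 of its limit. In fetal ovaries FSHR read 10.5, 10.8 and 3.5 for sheep under P1, P2 and P3 and 8.2 for cattle.

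The LH receptor LHCGR has 3 probe sets, and their highest LCM signals were 28.9, 34.5 and 30.05. Their medians over the 6 LCM arrays were 16.6, 22.9 and 5.63. Relative to the limit of its array the highest was 33.4 on SECG, at 0.670, and no array stood out on all 3. A signal under the limit does not show that the receptor is absent, and the limit bounds the signal rather than the RNA level.

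Of the genes of the first steps, STAR alone passed the limit in captured cells, and only on SECO. In oocytes it read 24.99 at the primordial, 35.3 at the primary and 87.2 at the secondary stage, and in GC 39.5, 44.2 and 38.4. On GC arrays it lay within a narrow range under the limits, and SECO was above all others. This made SECO at least 1.75-fold above SECG and at least 1.67-fold above PDO, where the bound sets the detection limit in place of a signal under it. To be detected on SECO and on no other LCM array was true of 1.33% of all probe sets. SECO was also the array where the brightest HBB probe set was highest. The summed signal of the 6 red cell genes on the array was 4510 there, 872 on PMG and 141 to 256 on the other 4, carried on SECO by HBB (3838) and HBG (575), while the other 4 genes were under the limit on every LCM array. Besides STAR itself, the theca markers detected on SECO were INSL3, also detected on PMG and SECG, and NR2F2, detected on all 6 LCM arrays. The part of other cells in the STAR signal was not tested.

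CYP11A1, the side-chain cleavage enzyme, was under the limit on all LCM arrays. It read 6.14, 5.1 and 1.6 on PDO, PMO and SECO and 2.9, 3.1 and 2.9 on PDG, PMG and SECG. No signal of it in captured cells was above 0.118 of its limit. CYP17A1, which opens the way to androgens, read 6.31, 35.8 and 3.92 in oocytes and 10.7, 9.32 and 2.72 in GC, with the PMO value at 0.483 of the limit.

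The 4 probe sets of CYP19A1, the aromatase, had medians of 4.04, 12.1, 8.82 and 6.88 over the LCM arrays. Their highest LCM signals were 44.6, 40.3, 41.3 and 15.3, at most 0.659 of the limit. The 4 probe sets did not peak on the same array. Over the 10 undetected probe sets, 15 of the 60 LCM signals were at 20 or more, where 20 is the constant added before taking log2.

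HSD17B1 was detected in GC and not in oocytes, and its signal in GC was higher at each later stage. The GC arrays read 6.89 (PDG), 102 (PMG) and 535 (SECG), the last at 10.7 times the detection limit. The oocyte arrays read 37.8 (PDO), 37.3 (PMO) and 5.86 (SECO), all under the limits. It was thus first detected in GC of primary follicles, a pattern of detection (PMG and SECG and no other LCM array) that 0.304% of all probe sets shared.

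Between PMG and SECG, both detected, the HSD17B1 signal differed 5.24-fold. SECG was at least 11.7-fold above PDG and at least 7.92-fold above SECO, and PMG was at least 2.23-fold above PDG and at least 1.38-fold above PMO. Each of these is a ratio of single arrays and has no replicate check.

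**Figure D2:**
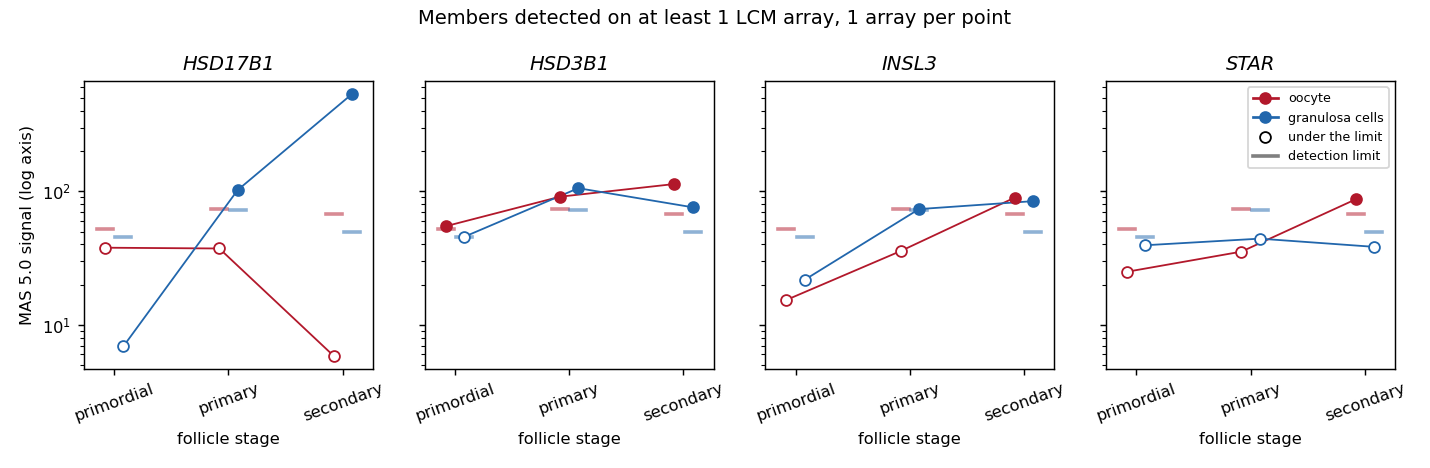
Signal (log axis) of the 4 genes detected on at least 1 LCM array, by follicle stage, with 1 array per point, oocytes in red, GC in blue, open points under the limit and short bars at the limit of each array. HSD17B1 parts the compartments by secondary follicles (535 in GC, 5.86 in oocytes), while at that stage INSL3 reads 84.5 in GC and 89.9 in oocytes.

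The gap between compartments did not pass the test over stages. With the 3 stages as replicates, HSD17B1 had a mean log2(signal + 20) of 5.46 in oocytes and 6.93 in GC, a difference of -1.47 ± 0.89 (SE). The adjusted p of limma after Benjamini-Hochberg was 0.554. Oocyte minus GC was -1.09 at the primary and -4.42 at the secondary stage. At the primordial stage it was 1.10, but both signals there were under their limits, so this sign is not a measured direction. Without the secondary stage, or without SECO alone, the difference became 0.0067, a value that takes in the undetected primordial pair.

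HSD3B1, which makes progesterone, was the most widely detected. Its signals were 54.8, 91.2 and 113 in primordial, primary and secondary oocytes and 45.6, 106 and 76.0 in GC of the same stages. It was detected from the primordial stage in oocytes and from the primary stage in GC, but the PDG signal of 45.6 lay just under the limit of 45.8 and the PDO signal just over its limit of 52.2. With the brightest 30% of each array as detected, HSD3B1 was first detected at the primary stage in both. Detection on at least 5 of the 6 LCM arrays held for 25.5% of all probe sets. The highest signal, on SECO, was 1.68 times the limit.

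The compartments overlapped throughout for HSD3B1, and oocyte minus GC was 0.16 ± 0.31 (SE), with an interval from -0.57 to 0.90. The limma adjusted p was 0.870. Primary minus primordial was 0.75 ± 0.38 (adjusted p = 0.781 by limma) and secondary minus primordial 0.69 ± 0.38 (adjusted p = 0.535). The 3 LCM arrays on which HSD3B1 was brightest, SECO, PMG and PMO, were also those with the highest median signal over all probe sets, 35.7 to 36.8 against 28.4 to 29.3 on the other 3. The part of this in the stage differences was not tested.

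INSL3, the relaxin-like hormone of theca and Leydig cells, had higher signals in later stages of both compartments. It read 15.4 (PDO), 35.7 (PMO) and 89.9 (SECO) in oocytes and 21.8 (PDG), 73.6 (PMG) and 84.5 (SECG) in GC. Both secondary arrays were above both primary arrays, and these were above both primordial arrays. The PDO, PMO and PDG signals were under their limits, so their order among themselves is not a measured direction. INSL3 was first detected in GC at the primary stage (73.6 against a limit of 72.1) and in oocytes at the secondary stage. Detection on these 3 LCM arrays and on no other LCM array held for 0.208% of all probe sets.

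From primordial to secondary, mean log2(signal + 20) of INSL3 went from 5.26 to 6.74, a difference of 1.48 ± 0.40 (SE), 1.64 in oocytes and 1.32 in GC. The unadjusted p of limma was 0.0065, a level below 0.05 that 11.4% of the 11642 probe sets tested reached, and the adjusted p was 0.273. Over 10 alternative settings with a test the adjusted p ranged from 0.166 to 0.524. Both primordial signals were under the limits, and by the limits SECO was at least 1.72-fold above PDO and SECG at least 1.85-fold above PDG. Secondary above primordial in both compartments was found for 31.9% of the probe sets tested.

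INSL3 did not part the compartments: oocyte minus GC was -0.30 ± 0.32 (SE), from -1.06 to 0.45, with a limma adjusted p of 0.744. At the secondary stage SECO and SECG read 89.9 and 84.5. The arrays that detected INSL3 include SECO and PMG, where the brightest HBB probe set was highest, and also SECG, where it read 69.4. Of the other 6 theca markers NR2F2 was detected on all 6 LCM arrays (1211 to 4629) and STAR on SECO, and LHCGR, CYP17A1, CYP11A1 and PTCH1 were under the limit on all 6. The summed signal of the 7 theca markers was 1346 to 4797, most of it NR2F2. The part of theca cells in the INSL3 signal was not tested.

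Across the LCM arrays 0 of the 4 genes tested passed the adjusted threshold of 0.05 in any contrast, in either direction, and 0% of the 11642 probe sets tested by limma did. For 0 of the 4 did all GC arrays lie above all oocyte arrays, against 7.71% of the 11642. The reverse order held for 0 of the 4 as well, against 7.28%. At an unadjusted limma p under 0.05 it was 0 of 4 by compartment (11.1% of the 11642). It was 0 of 4 for primary (6.55%) and 1 of 4, INSL3, for secondary against primordial (11.4%). The fit leaves 2 residual degrees of freedom. STAR, HSD17B1 and INSL3 entered the fit through arrays of later stages alone, which favours differences above 0 from the primordial stage, so no count or median over the 4 is given. For STAR the differences were 0.09 ± 0.36 by compartment, 0.20 ± 0.44 for primary and 0.61 ± 0.44 for secondary against primordial. The compartment difference of STAR turned to -0.31 without the secondary stage.

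**Figure D3:**
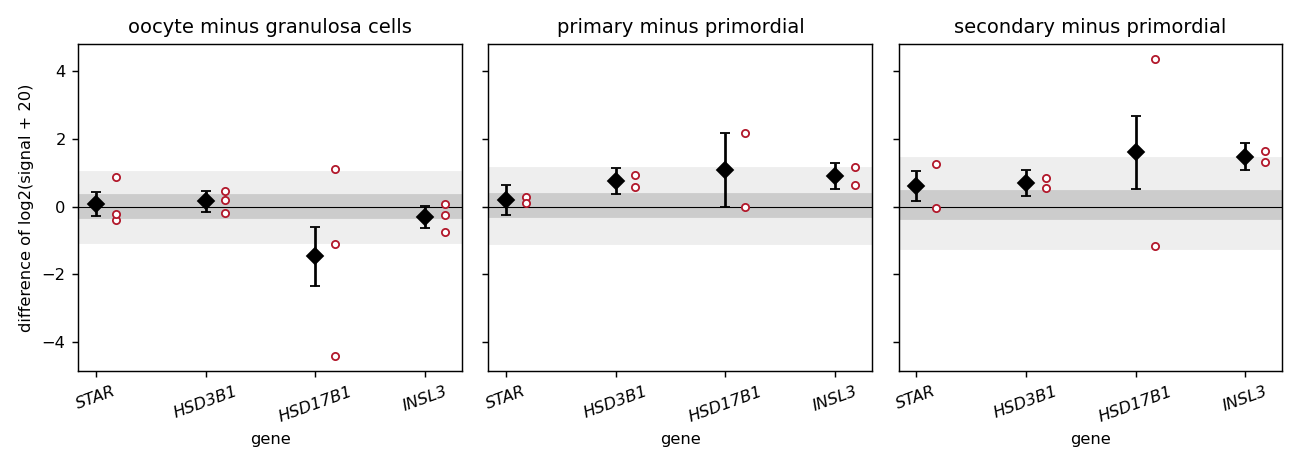
Differences of log2(signal + 20) of the 4 genes tested (diamonds, with SE) by compartment and by stage, with single-stage or single-compartment differences as open circles and the middle 50% and 95% of the 11642 probe sets as dark and light bands. HSD17B1 lies at -1.47 by compartment and 1.60 for secondary minus primordial, and its circles spread to either side of 0 through signals under the limits.

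For the stages HSD17B1 gave 1.60 ± 1.08 (SE) for secondary minus primordial, from a mean of 5.30 to 6.90, with a limma adjusted p of 0.601. This mean joins 4.37 in GC and -1.16 in oocytes, where both signals were under the limit. Primary minus primordial was 1.09 ± 1.08, from 2.18 in GC and -0.01 in oocytes, again under the limits. Without SECO the secondary difference was 3.82.

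In whole fetal ovaries the genes of the early steps and INSL3 gave higher signals with cattle RNA than with sheep RNA. Under P1, CYP11A1 read 71.1 in cattle and 4.4 in sheep, CYP17A1 115.3 and 32.8, STAR 37.9 and 8.7, and INSL3 539 and 97.7. HSD3B1 read 60.2 in cattle and 34.5 in sheep, and HSD17B1 went the other way, 68.6 in cattle and 137.6 in sheep. All 6 were detected with cattle RNA, and STAR and CYP11A1 were not with sheep RNA, a state that 11.9% of all probe sets shared.

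Cattle RNA gave at least 2.21-fold more CYP11A1 signal than the sheep limit, and 3.52-fold more CYP17A1 and 5.52-fold more INSL3 than sheep RNA, though the sheep CYP17A1 signal stood only just over its limit of 32.1. For STAR the cattle signal was at least 1.18-fold the sheep limit. On the log2(signal + 20) scale 4 of these 6 genes read at least 2-fold higher in cattle. These were STAR (1.01), CYP17A1 (1.36), CYP11A1 (1.90) and INSL3 (2.25). Of the 14838 probe sets detected on either array 20.5% were higher by that much and 12.3% lower. The sheep signals of STAR and CYP11A1 were under the limit. With the limit in their place the count was 2, CYP17A1 and INSL3, against 14.8% of the 14838. With a constant of 50 it was 2 as well. HSD17B1 differed by -0.83 and HSD3B1 by 0.56. Species, fetal age and the match of sheep RNA to cattle probes cannot be told apart here, and each side is 1 array.

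**Figure D4:**
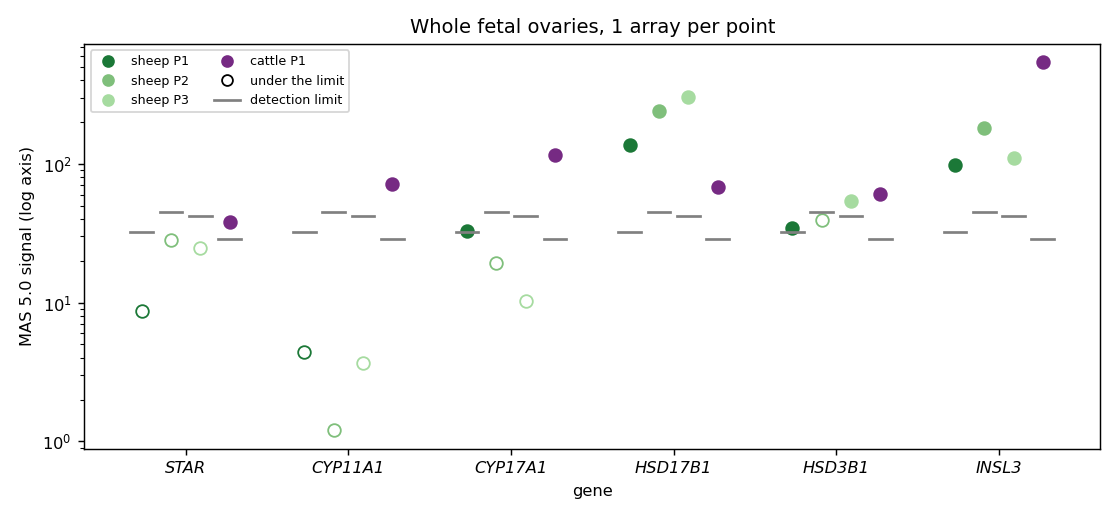
Signal (log axis) of the 6 genes detected in at least 1 whole fetal ovary, with 1 array per point, sheep under 3 protocols in green, cattle in purple, open points under the limit and grey bars at the limits. CYP11A1 and STAR are above the limit with cattle RNA alone, and HSD17B1 is above it on all 4 arrays and highest with sheep RNA.

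The 3 labelling protocols were run on sheep fetal ovary of the same age. HSD17B1 read 137.6, 240.5 and 302.6 with P1, P2 and P3. It was the 1 member that differed at least 2-fold between P3 and P1 (1.03 on the log2 scale). Of the 12755 probe sets detected on either array 14.2% were at least 2-fold higher and 25.7% lower. INSL3 read 97.7, 181.1 and 109.4, and HSD3B1 34.5, 39.4 and 54.1, of which 39.4 was under the limit. CYP17A1 read 32.8, 19.3 and 10.3 and was detected under P1 alone. The median difference over all probe sets compared was -0.22, so that P3 read lower than P1 in general.

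Set beside the fetal ovary under P3, the protocol of the captured cells, SECG exceeded it for HSD17B1 (535 against 302.6) and the other 5 LCM arrays were below it. The mean over the 6 LCM arrays, of which 4 were under their limits, was lower by 2.14 on the log2 scale. HSD17B1 was the 1 member past 2-fold. Of the 12134 probe sets detected on any of these arrays, 10.9% were at least 2-fold lower and 6.40% higher. INSL3, under the limit on 3 of the 6, was lower on average by 0.95, and HSD3B1 higher by 0.40. These captures are of newborn lambs and the whole ovary is fetal, so age and cell makeup cannot be told apart.

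Of the genes that deliver cholesterol, 7 of 11 are on the array and each was detected on at least 1 LCM array, with 3 (PMO) to 7 (SECO) of the 7 on a single one. Each gene of these lists stands by its brightest probe set, so such shares are not set against those over all probe sets. NPC1, NPC2 and LIPE were detected on all 6 arrays, and TSPO, a mitochondrial cholesterol-binding protein, on 1. All 7 were tested, and 0 passed in either direction in any contrast (0% of the 11642 probe sets tested passed). NPC2, which carries cholesterol out of the lysosome, read 232 to 557 over the LCM arrays, its partner NPC1 146 to 334, and the cholesterol ester lipase LIPE 168 to 332. The median differences were 0.17 by compartment, 0.33 for primary and -0.04 for secondary against primordial.

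Of the proteins that hand electrons to the steroid P450 enzymes, 4 of 6 are on the array and 3 were detected on at least 1 LCM array, with 1 to 3 of the 4 on any single one. FDX1, which serves CYP11A1, read 362, 321 and 138 in oocytes and 251, 158 and 144 in GC, with a signal on every LCM array over the limit. POR, which serves CYP17A1 and CYP19A1, was detected on SECO (88.5) and SECG (114) and on no other LCM array. CYB5R3, a cytochrome b5 reductase, was detected on 5 of the 6, and CYB5A, cytochrome b5 itself, on none of them. Of the 3 tested 0 passed, with a median of 0.28 by compartment, -0.38 for primary and -0.02 for secondary against primordial.

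Among 29 other steroid enzymes, 18 are on the array and 9 were tested, with 0 passing in either direction. HSD17B10, a mitochondrial dehydrogenase, read 1140 to 2629 over the LCM arrays, HSD17B4, an enzyme of peroxisomal fatty acid breakdown, 760 to 1716, and HSD17B8, an enzyme of mitochondrial fatty acid synthesis, 293 to 769. HSD17B10 and HSD17B8 read higher on average in oocytes than in GC by 0.58 and 0.45 on the log2 scale, which did not pass. At the secondary stage HSD17B10 was not higher in oocytes, with 1489 on SECO and 1582 on SECG. HSD17B10, HSD17B4 and HSD17B8 were each detected on all 6 arrays, and HSD17B1 on 2.

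The list of steroid receptors and their regulators had the widest stage difference of these lists, with 0 of its 7 genes tested passing. For secondary against primordial 6 of the 7 differences were above 0, with a median of 0.93 against 0.05 over the 11642 probe sets tested. Of the 7, 4 had an unadjusted limma p under 0.05 (11.4% of the 11642). NR5A1, the factor that switches on steroidogenic genes, read 74.2, 88.3 and 181 in oocytes and 61.0, 231 and 434 in GC, a secondary minus primordial difference of 1.79. Its other 3 probe sets did not follow: one was under the limit on all LCM arrays and the others read 32.8 to 89.6 and 37.0 to 104. GATA6, a factor of theca and GC, read 230, 474 and 406 in oocytes and 452, 638 and 995 in GC, and PGRMC1, a progesterone-binding membrane protein, 98.9, 201 and 292 and 167, 288 and 490. By compartment the median of the list was -0.61, lower in oocytes. Markers of cell types also differed by stage, in both directions. For secondary against primordial the 5 GC markers tested, which share GATA4 with this list, had a median of 1.12. INHA among them entered the fit through arrays of later stages alone, which favours a difference above 0. The median was -0.58 for the 8 oocyte markers, -1.5 for the 3 endothelial, -0.69 for stroma and -0.34 for smooth muscle markers. For leukocyte markers it was 0.29 and for red cell markers 2.29. No median is given for theca markers, since STAR and INSL3 among them entered the fit through arrays of later stages alone. The summed GC marker signal was 232 to 820 on the primordial and 760 to 2136 on the secondary arrays. The part of cell makeup in the stage differences of this list was not tested.

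Of the cAMP pathway, which carries the signal of the gonadotropin receptors into the cell, 22 of 31 genes are on the array. On at least 1 LCM array 15 of the 22 were detected, with 5 (PMG) to 11 (PDG) on a single one. The 15 were tested and 0 passed, with medians of 0.18 by compartment, -0.19 for primary and 0.10 for secondary against primordial. GNAS, the G protein subunit that couples FSHR and LHCGR to adenylyl cyclase, read 21010, 18601 and 4142 in oocytes and 8314, 4786 and 2994 in GC by its brightest probe set, higher in oocytes at each stage. A further probe set of GNAS, bright on all arrays, was also higher in oocytes (2966, 2043 and 979) than in GC (962, 890 and 539). Another that was bright on all arrays went the other way, 3430 to 4949 in oocytes and 5705 to 5879 in GC. PRKAR2A and PRKAR1A, which hold protein kinase A inactive until cAMP binds, read 668 to 1718 and 314 to 1610.

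Of a list of pituitary hormones and receptors, 4 of 8 genes are on the array, namely FSHB, CGA, LHB and GNRHR. No INSL3 receptor is among these, so none was measured. FSHB and CGA, subunits of FSH and of both gonadotropins, and GNRHR, the GnRH receptor, were detected on no LCM array. LHB, the LH subunit, was detected on 5 of 6 LCM arrays at 49.7 to 99.2 and read 19.6 on PMO. On PDG (49.7), SECO (72.4) and PMG (77.5) its signal lay just over the limits of 45.8, 67.6 and 72.1. Detection on at least 5 of the 6 held for 25.5% of all probe sets. LHB was the 1 gene of this list tested, with differences of -0.13, -0.55 and -0.05, and did not pass.

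The genes whose pattern was most like that of each member were sought over log2(signal + 20) of the 10 arrays, among 6146 genes detected on at least 3 of them. The 10 arrays share no replicate and differ in tissue and labelling, so these correlations describe the arrays. For HSD17B1 they were MAP3K6 (r = 0.89), a stress kinase, RNASET2 (r = 0.89), a lysosomal ribonuclease, and TWF2 (r = 0.87), an actin-binding protein. The first and second of these were detected on 1 LCM array each, SECG, at 71.6 and 175.

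The ovarian genes INHA, NR5A1 and FST, chosen after their values were seen, stood at varied places in that order. INHA, the inhibin subunit of GC, was at rank 6 (r = 0.86) and read 36.7, 200 and 617 in GC and 27.4, 105 and 62.6 in oocytes. NR5A1 was at rank 14 (r = 0.83). FST, the activin-binding protein of GC, was at rank 197 (r = 0.63), with 107, 410 and 776 in GC.

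**Figure D5:**
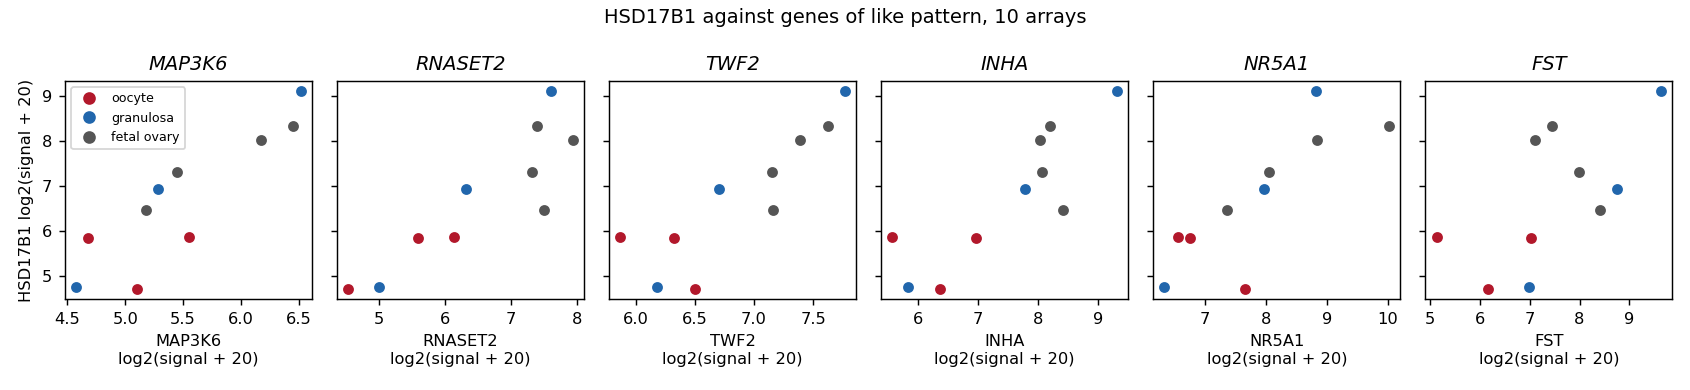
Log2(signal + 20) of HSD17B1 against that of the 3 genes most like it and of INHA, NR5A1 and FST, over the 10 arrays (oocytes red, GC blue, fetal ovaries grey). In each panel SECG is the highest point on the HSD17B1 axis, and r falls from 0.89 for MAP3K6 to 0.63 for FST.

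For HSD3B1 the genes most like it were TRAPPC9 (r = 0.93), of a vesicle tethering complex, RPL37A (r = 0.90), a ribosomal protein, and NICN1 (r = 0.89). For INSL3 they were SOX18 (r = 0.97), a transcription factor of endothelium, SEC61A1 (r = 0.95), of the pore that takes proteins into the endoplasmic reticulum, and FLNC (r = 0.95), a filamin. SOX18 was under the limit on all 6 LCM arrays and read 174.5 with cattle RNA, where INSL3 too was highest. Over the 6 LCM arrays alone the r of INSL3 was 0.97 with SOX18, 0.81 with SEC61A1 and 0.94 with FLNC.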

How the data were processed

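The authors deposited MAS 5.0 signal intensities of 10 Affymetrix Bovine arrays (GCOS and MAS5 are named in the submitters' processing notes, versions not given in the sources used here), scaled by them to a trimmed mean of 100, which was 100.02 to 100.04 here without the lowest and highest 2% of values. The 112 control probe sets were left out of tests. Of the others 13292 have 1 symbol in the array annotation, 86 several and 10638 none, and the 9 members were matched by symbol among those with 1.

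Present calls were not used here. As many of the brightest values per array counted as detected as the study's percentage of present calls gives, so the number detected is set by those percentages. The linear model of limma 3.58.1 (R 4.3.3) took log2(signal + 20) of the 6 LCM arrays with stage and compartment as terms, for the 11642 probe sets that 1 or more of these arrays detected. It left 2 residual degrees of freedom beside 5.43 prior ones, and Benjamini-Hochberg adjustment was used at 0.05. Stages stand in as replicates of a compartment, and p-values measure only the spread between these arrays. It was tested on simulated data. Fetal ovary arrays were compared as single arrays by a difference of 2-fold or more, with no test. In "at least" folds a signal under the limit was replaced by the limit.

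Members and lists were chosen with earlier results of these data known. Named are all members, the 3 brightest genes of each pathway list (the brightest probe set standing for a gene) and the 3 genes most correlated with each member detected on at least 3 arrays. Other genes, and markers, were chosen after their values were seen. Python 3.11.15 and matplotlib 3.10.9 made the tables and figures. Alternatives were added constants of 1 and 50, quantile normalization, all probe sets or those that at least 3 LCM arrays detected, an intensity trend, leaving out a stage or compartment, and detection at a signal of 50 or 100 or in the brightest 30%. Leaving out SECO, and setting signals under the limit at the limit, were added after seeing the data.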

Additional observations from a re-analysis of the deposited data

Results flagged for a closer look

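The stage differences of HSD17B1 had opposite signs in the 2 compartments. Secondary minus primordial was -1.16 in oocytes and 4.37 in GC on the log2(signal + 20) scale, and primary minus primordial was -0.013 and 2.18. The difference between compartments was not tested, since 1 array per stage and compartment leaves no residual. The 3 oocyte signals behind these differences were all under the detection limits, so no decline in oocytes was measured.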

How the results depend on the processing

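The model pairs the arrays of a stage, since stage and compartment are both its terms, and without the other term 0 probe sets passed in each contrast. With an intensity trend 10 probe sets passed by compartment and 67 for secondary against primordial, with a constant of 50 the latter was 37, and leaving out a stage gave 0 to 18, against 0 in each case before. None of these were of the members, which passed in no setting. At a signal of 100 the number of members detected on LCM arrays was 2 in place of 4. The number of members differing 2-fold between cattle and sheep was 2 with a constant of 50, and 2 with signals under the limit set at the limit. Between P3 and P1 it was 2 with a constant of 1 and 0 with 50, and between LCM and P3 it was 2 with a constant of 1. Oocyte minus GC changed sign without the secondary stage, as without SECO, for STAR (-0.31) and HSD17B1 (0.0067), and over the stages left out it ranged up to 0.33 for STAR and down to -2.76 for HSD17B1. Primary minus primordial of STAR was -0.012 after quantile normalization. In single compartments HSD17B1 gave -0.013 for primary and -1.16 for secondary minus primordial in oocytes against 2.18 and 4.37 in GC, and STAR -0.026 for secondary minus primordial in GC against 1.25 in oocytes. The causes were not tested. The 2-fold line was crossed 8 times: in cattle against sheep by STAR (0.58 with a constant of 50, 0.82 after quantile normalization, 0.15 with limits), CYP11A1 (0.81 with limits) and CYP17A1 (0.997 with 50), in P3 against P1 by HSD17B1 (0.91 with 50) and CYP17A1 (-1.58 with 1), and in LCM against P3 by INSL3 (-1.31 with 1). The other 170 values of single genes kept their direction and their side of the threshold, and the other 69 counts stayed within 1.5 times. The number of arrays limits all of this, and 10 of the 14 probe sets have only signals under the limit in captured cells.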
